A study of Mus musculus with 2 samples.

Results

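Beta cells with the highest share of RNA from Ddit3, Trib3 and Atf4 were examined in mouse pancreatic islets by single-cell RNA sequencing. The members were the top 10% of gated beta cells of both libraries, ranked together by the share of these 3 genes in the UMIs (unique molecular identifiers, each marking 1 captured RNA molecule) that did not come from the insulin genes Ins1 and Ins2. The rule gave 689 members among 6893 gated beta cells, 434 of 2636 in the control library and 255 of 4257 in the one labelled knockout. In each library the members were set against the 50% of the gated cells with the lowest score, 1318 and 2128 cells, called the bottom 50% here.

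Islets came from 12-week-old female mice on the C57BL/6 background. One library was made from Spop fl/fl mice, the floxed control, and the other from mice with Spop deleted in beta cells. The labels state neither the Cre driver, the deleted exons nor how many mice were pooled. All islets recovered for 3 days in RPMI medium with 10 mM glucose and were dispersed with trypsin. Dead cells and debris were removed before droplet capture and 3′ tag counting with the 10x Genomics v3.1 chemistry. There was 1 library per genotype, so no difference could be tested. Each interval below is a 95% interval that covers counting error only, and cells of 1 library are not replicates.

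CHOP, the protein of Ddit3, is a transcription factor induced when ATF4 is translated during the integrated stress response, the arm of stress signalling that PERK switches on when misfolded protein builds up in the endoplasmic reticulum (ER). ATF4 and CHOP switch on genes of amino acid supply and of recovery from stress, among them Trib3, a pseudokinase that restrains ATF4. Beta cells fold large amounts of proinsulin in the ER, and prolonged CHOP activity is known as a route to beta cell death.

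Spop, which brings target proteins to a CUL3-based ubiquitin ligase, stood at like levels in the members of both libraries. It stood at 75.4 CPM (67.1 to 84.4) in control members and 76.6 CPM (65.3 to 89.2) in members labelled knockout, where CPM is counts per 1000000 UMIs, with Ins1 and Ins2 left out of the total. In the bottom 50% it stood at 81.6 and 110.7 CPM. The 3′ tag need not lie in the deleted part of the gene, so these levels do not check the label, and the name "labelled knockout" is kept throughout. Gated cells had medians of 11986.5 and 12205 UMIs. The libraries shared 21 barcodes, of which 1 was a member, in the library labelled knockout.

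Members made up 16.5% of gated beta cells in the control library (Clopper-Pearson interval 15.1 to 17.9%) and 5.99% in the library labelled knockout (5.30 to 6.75%). The control library thus gave 63.0% of the members from fewer gated cells. The score of the rule had no gap at the limit. On the CPM scale, the last members scored 3555.8, 3554.5 and 3553.66, and the first cells left out scored 3553.58, 3551.82 and 3550.63. Of the 689 members, 242 (35.1%) lay within 10% of the limit. The highest score was 15629.9.

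**Figure D1:**
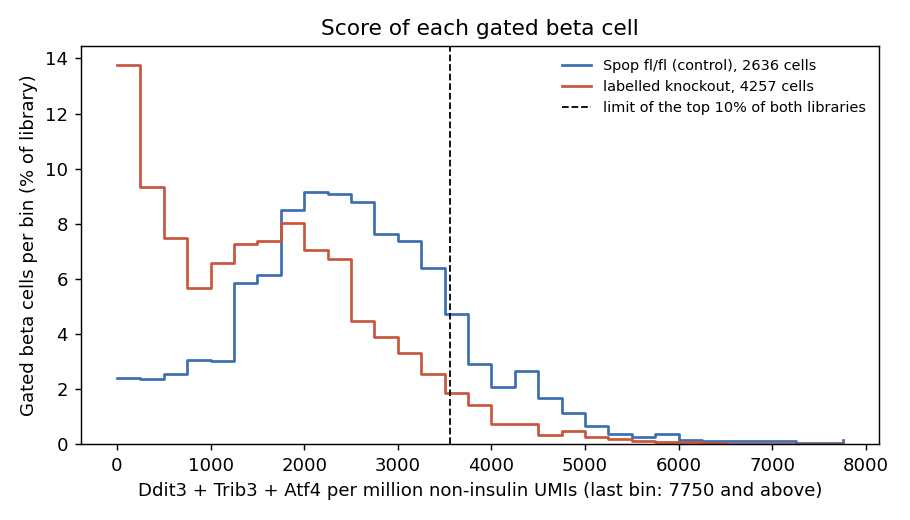
Distribution of the score (Ddit3, Trib3 and Atf4 in CPM without insulin UMIs, x axis) over gated beta cells of each library, as the percentage of that library's gated cells in each bin (y axis). The dashed line is the limit of 3553.66 at or above which cells are members, and it falls on the falling flank of both distributions with no gap.

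The library medians of the score were 2459 in all control gated cells and 1498 in those labelled knockout. They came close together among the members, at 4219 and 4080, because 1 limit was used for both. In the bottom 50% they stood at 1731 and 558, so the comparison cells of the control library carried more CHOP pathway RNA than those labelled knockout. A ratio of members over the bottom 50% therefore starts from a different base in each library.

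Cells gated as alpha cells gave a view of the score outside beta cells. Only Ins1 and Ins2 were left out of its total here too. Glucagon RNA thus stayed in the total of alpha cells and lowered their score relative to that of beta cells. Their median score was 1301 in the control library (1288 cells, median 8422.5 UMIs) and 1191 in the one labelled knockout (509 cells, median 7318 UMIs). Of the control alpha cells 8 reached the limit, 0.621% (0.269 to 1.22%), and of those labelled knockout 0 did, which allows a share of up to 0.722%.

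Ddit3 supplied most of the score. This gene (protein-coding, on the plus strand of chromosome 10 from 127290774 to 127296288 in the mm10 build) held 78.3% of the rule genes' UMIs in control members and 83.2% in members labelled knockout. It was the most counted of the 3 in 431 of 434 and 255 of 255 members. Ddit3 stood at 3374 CPM in control members and 1072 CPM in their bottom 50%, and at 3654 and 367 CPM in the library labelled knockout. The members of both libraries were alike in Ddit3 within 0.12 on the log2 scale, while the cells of the bottom 50% were 1.54 apart, with the control higher. A typical member carried 27 or 26 Ddit3 UMIs (medians), against 11 and 2 in the bottom 50%. Ddit3 overlaps the tRNA synthetase gene Mars by 68 bases on the opposite strand, and the sources used here do not give how the counting used strand.

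Atf4, the transcription factor upstream of Ddit3 (chromosome 15, 80255184 to 80257541, plus strand), held 17.6% and 12.6% of the rule genes' UMIs. It stood at 757 CPM in control members against 424 CPM in the bottom 50%, and at 553 against 236 CPM in the library labelled knockout. Trib3 (chromosome 2, 152337422 to 152344032, minus strand) behaved unlike the other rule genes. It stood at 179 CPM in control members and 151 CPM in their bottom 50%, a log2 ratio of 0.24 (0.12 to 0.36), although it was part of the rule. With the knockout label it stood at 184 and 52.8 CPM, a log2 ratio of 1.80. No Trib3 UMI was seen in 141 control members (32.5%) and 94 members labelled knockout (36.9%).

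These ratios chose the cells and are descriptions. To separate choosing from measuring, the UMIs of each cell were split at random into 2 equal parts, cells were chosen on one part and levels were read in the other. Ddit3 then gave log2 ratios of 1.30 in the control library and 2.74 in the one labelled knockout. Atf4 gave 0.59 and 0.83, and Trib3 gave 0.08 (−0.10 to 0.26) and 1.30 (1.06 to 1.53). Cells chosen on one part made up 15.3% and 6.69% of the gated cells of their libraries. Of these chosen cells, 50.5% and 38.2% were also in the top 10% by the other part. A member carried a median of 34 UMIs of the rule genes in the control library and 31 in the other.

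Each rule gene was also read in cells chosen by the other rule genes alone. Ddit3 was higher in cells chosen by Trib3 and Atf4 by 0.51 (0.48 to 0.55, log2) in the control library and by 1.51 (1.46 to 1.56) in the one labelled knockout. Those cells included only 44.0% of control members and 24.7% of members labelled knockout. With Atf4 or Trib3 left out instead, the chosen cells included from 82.3% to 93.1% of a library's members. Atf4 was higher in cells chosen by Ddit3 and Trib3 by 0.49 and 0.82. Trib3 differed between the libraries here, at −0.13 (−0.26 to −0.01) in control cells chosen by Ddit3 and Atf4 and 1.28 in those labelled knockout. In the control library, cells high in Ddit3 and Atf4 thus carried no more Trib3 RNA per UMI than the cells at the bottom.

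The gated cells of each library were also cut into 10 deciles by score. Ddit3 stood higher in each decile than in the one before in both libraries, from 229.7 to 3771 CPM in the control and from 31.6 to 3214 CPM in the library labelled knockout. Ddit3 is most of the score that ordered the cells, so its rise largely follows from the rule and is a description. Trib3 stood at 55.3 CPM in the first control decile and 189 CPM in the fourth, and between 162 and 183 CPM in every later decile. In the library labelled knockout it went from 3.14 CPM in the first decile to 85.1 in the fourth, 149.9 in the seventh and 179.7 in the last. The Trib3 levels of the libraries were close in the last decile and far apart in the first.

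**Figure D2:**
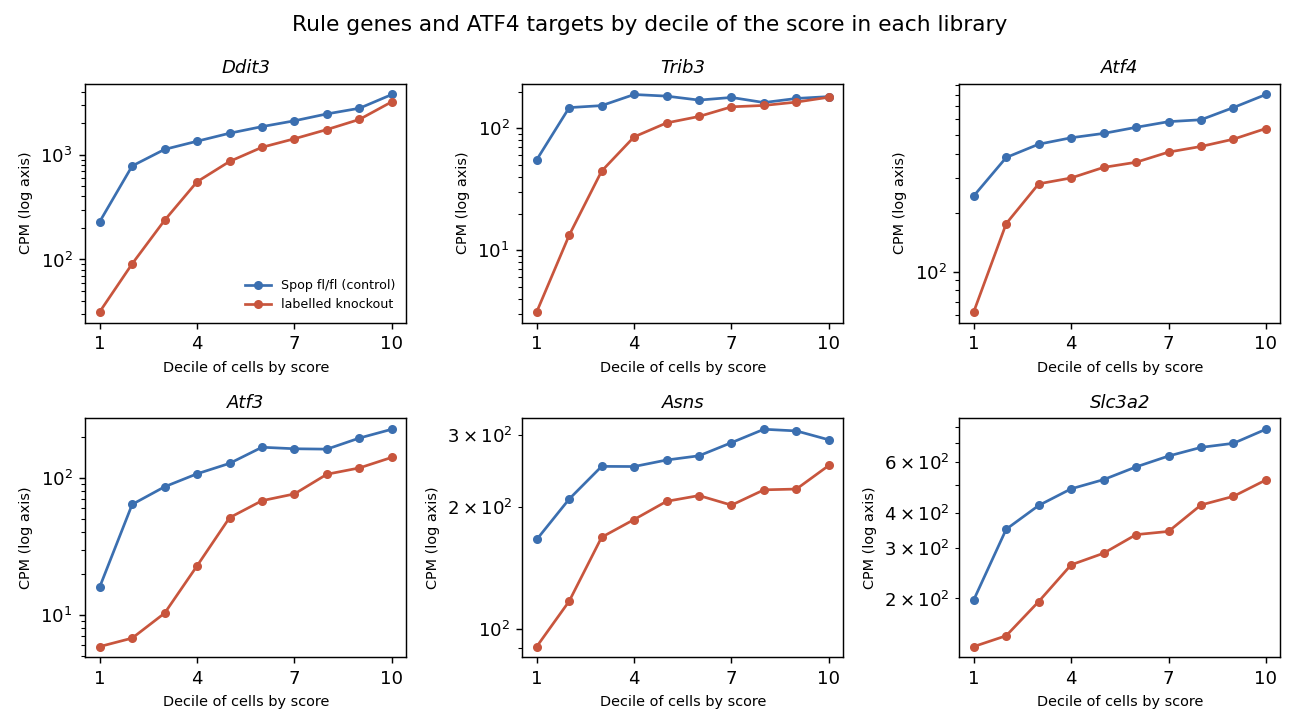
CPM (log axis) of the 3 rule genes and of the ATF4 targets Atf3, Asns and Slc3a2 in deciles of the gated cells ordered by score within each library (1 is lowest). Ddit3 is higher in every next decile, which largely follows from ordering the cells by the score. Control Trib3 is level from the fourth decile on, and control Asns is at 309.9 CPM in the eighth decile and 291.9 CPM in the last.

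Across 8424 genes measured at 10 CPM or more in the gated cells of each library, 670 (7.95%) were at least 1.5-fold higher in control members than in the bottom 50%, and 1156 (13.7%) at least 1.5-fold lower. For the knockout label 1704 genes (20.2%) were higher and 1289 (15.3%) lower. Both libraries shared 570 higher genes (6.77%) and 819 lower genes (9.72%), and 6 genes (0.0712%) went past 1.5-fold in opposite directions. Of all genes measured, 80.3% had the same direction in both, and the log2 ratios of the libraries had r = 0.82 across genes, which are not independent replicates. The median over all genes was 0.03 and 0.10. The rule used this contrast, so the counts serve as the background for the lists below.

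Depth and mitochondrial RNA moved with membership. Members had medians of 9254.5 and 8511 UMIs, against 13158 and 13643 in the bottom 50%. Mitochondrial UMIs made up 0.550% and 0.886% of the members' UMIs, against 1.78% and 3.38%, and none of the 689 members was among the 10% of gated cells with the highest mitochondrial share. All 13 mitochondrially encoded genes were more than 1.5-fold lower in members of both libraries, with medians of −2.02 and −2.06. With the comparison cells weighted to the members' mitochondrial share, 80 of 8424 genes were higher and 352 lower in both libraries. The part of depth and mitochondrial RNA in the gene differences was not tested further.

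**Figure D3:**
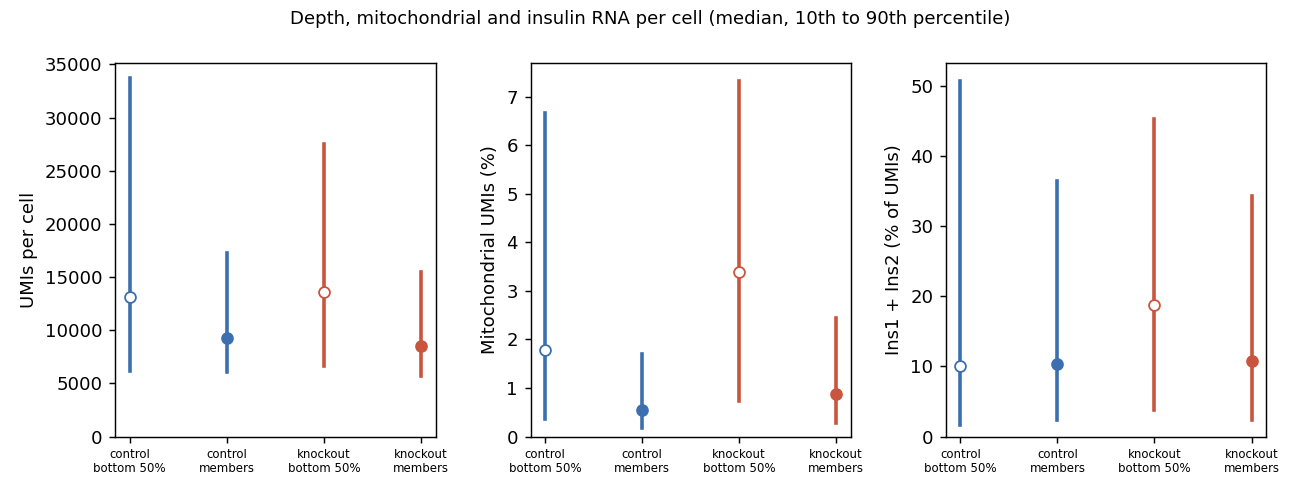
UMIs, mitochondrial UMIs and insulin UMIs per cell (y axes, linear) in the bottom 50% (open) and the members (filled) of each library. Points are medians and bars span the 10th to 90th percentile of cells, and members sit lower in UMIs and mitochondrial share in both libraries.

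The list of CHOP and ATF4 targets and feedback genes, without the rule genes, held 22 genes, of which 16 were measured. In the control library 3 of the 16 were at least 1.5-fold higher in members and 1 was lower, with a median log2 ratio of 0.28. With the knockout label 12 were higher and 0 lower, with a median of 0.88. Higher in both libraries were Atf3, Ppp1r15a and Ero1l. Against cells of the sixth to eighth decile, a comparison chosen after seeing the deciles, the list medians were −0.03 and 0.13. Most of the difference in this list thus lay between the lowest cells and the middle of the range.

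Atf3, a stress-induced transcription factor of the ATF family (chromosome 1, 191170296 to 191218039, minus strand), led the list. It stood at 210.3 CPM in control members and 84.5 CPM in the bottom 50% (log2 ratio 1.31, 1.19 to 1.44), and at 146 CPM in members labelled knockout, with a log2 ratio there of 2.86 (2.66 to 3.07). Ppp1r15a encodes GADD34, the phosphatase subunit that reverses the block of translation. It was at 508 against 304.5 CPM in control members and at 426 against 159 CPM in members labelled knockout. Ero1l, an oxidase that helps form disulfide bonds in the ER, gave log2 ratios of 0.68 and 0.94. Gdf15, a stress-secreted hormone, gave 0.54 (0.25 to 0.82) and 1.63 (1.29 to 1.95).

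Several targets, like Trib3, had smaller ratios in the control library than in the other. Chac1, which breaks down glutathione, stood at 61.3 CPM in control members and 58.6 CPM in their bottom 50%, against 59.8 and 27.5 CPM in the library labelled knockout. Nupr1, a small stress-induced chromatin protein, stood at 803 and 799 CPM in the control library and at 1922 and 767 CPM in the one labelled knockout. Eif4ebp1, which holds back cap-dependent translation, gave log2 ratios of 0.24 and 1.16. In all 3 genes the log2 ratio was at least 0.93 larger in the library labelled knockout.

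Promoter sequence is shown for some ATF4 targets, since ATF4 is known to act through a composite element that many of its targets carry near the start site. The genes shown were picked by hand, and all hold a match, so they do not stand for their lists. Of the listed targets higher in both libraries, only Atf3 is among them. Windows of 300 bases (250 before and 50 after each start) from RefSeq on GRCm38.p6 were searched on both strands for the ATF4 and CEBP composite element TGATGNAA. Capitals below mark the match, and each stretch is written 5′ to 3′ on the strand of its gene. The stretches lie at chr2:152344013-152344072 (Trib3, minus strand), chr1:191183410-191183469 (Atf3, minus), chr2:119351023-119351082 (Chac1, plus), chr7:126625547-126625606 (Nupr1, minus) and chr6:7693199-7693258 (Asns, minus).
Trib3: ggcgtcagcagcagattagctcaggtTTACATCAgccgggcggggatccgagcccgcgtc
Atf3: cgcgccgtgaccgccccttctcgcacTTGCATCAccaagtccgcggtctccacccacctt
Chac1: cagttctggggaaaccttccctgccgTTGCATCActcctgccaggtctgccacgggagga
Nupr1: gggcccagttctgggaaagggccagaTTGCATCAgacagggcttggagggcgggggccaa
Asns: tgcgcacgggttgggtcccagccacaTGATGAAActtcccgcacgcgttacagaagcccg

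Counted here and below from the RefSeq start of each window, the match began 110 bases before it in both Atf3 and Nupr1. It began 193 before the start in Chac1, 23 before it in Asns and 14 after it in Trib3. The gene positions printed in this report come from GENCODE, whose gene ends differ from these starts for Trib3, Atf3 and Hspa5. The windows of Ddit3 and Atf4 held no match, which says only that these letters are not in those windows. Of 17 listed CHOP and ATF4 targets with a window, 6 held the element (35.3%), against 4.51% of the 27025 genes with a window and 2.64% of the 6786 measured ones. Among the 471 genes with a window that were 1.5-fold higher in members of both libraries, 10 held it (2.12%), and among the 627 lower genes 22 did (3.51%). The share in the higher genes was thus no greater than in all measured genes. A match is a description of letters and not of binding.

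Amino acid supply, the best known output of ATF4, differed little in the control library. Of 16 genes of amino acid synthesis and one-carbon metabolism 13 were measured, and 0 were 1.5-fold higher or lower in control members, with a median of −0.24. For the knockout label 3 were higher and 0 lower, with a median of 0.10. Asns, which makes asparagine, stood at 294 against 231 CPM in the control library and 266 against 155 CPM in the one labelled knockout. The log2 ratios of Psph, the last step of serine synthesis, were 0.22 and 0.63. Mthfd2, a mitochondrial folate enzyme, stood at 195 CPM in control members and 239.9 CPM in their bottom 50%.

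Of 13 amino acid transporters 8 were measured, with medians of 0.07 and 0.59. One was higher and 2 were lower in control members, and 4 were higher and 2 lower in members labelled knockout. Slc3a2, the heavy chain shared by several transporters, was the one higher in both, at 761 against 408 CPM in the control library and 529 against 208 CPM in the other. Slc1a4, a neutral amino acid exchanger, gave 0.49 (0.25 to 0.72) and 1.35 (0.99 to 1.69). Slc7a2, a carrier of cationic amino acids that beta cells express, was lower, with log2 ratios of −1.60 and −2.49.

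The tRNA synthetases, which charge tRNAs with amino acids, were split by whether they have been described as ATF4 targets. Of the 12 so described, 0 passed 1.5-fold in the control library (median 0.32) and 8 were higher in the library labelled knockout (median 0.67). Nars, for asparagine, stood at 469.5 against 354 CPM in the control library and 503 against 266 CPM in the other. Of the other 8 cytosolic synthetases, 1 was higher in the control library (median 0.30), and 1 was higher and 1 lower in the library labelled knockout (median 0.29). Rars, for arginine, was the one higher in both, with log2 ratios of 0.78 and 1.19. Of the 8 described targets with a promoter window 5 held the composite element, and of 5 other synthetases 0 did. Tars is shown because it carries the match 15 bases before its start (chr15:11399640-11399699, minus strand), and Slc1a4, the transporter above, carries it 4 bases before (chr11:20332684-20332743, minus strand).
Tars: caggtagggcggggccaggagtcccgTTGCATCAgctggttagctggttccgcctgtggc
Slc1a4: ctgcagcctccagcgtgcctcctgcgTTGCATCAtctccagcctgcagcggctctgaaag

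Initiation factors and translation regulators were measured for all 18 listed genes. In the control library 6 were higher and 0 lower (median 0.30), and in the library labelled knockout 7 were higher and 0 lower (median 0.39). Eif2s1, from the list of sensors, encodes the subunit of eIF2 that stress kinases phosphorylate, and gave log2 ratios of 0.81 and 1.01. Eif2b3, part of the exchange factor that phosphorylated eIF2 blocks, gave 0.83 and 1.29. Eif5, which acts on the same complex, stood at 1565 against 1021 CPM and 1295 against 583 CPM. The elongation factor Eef1a1 went the other way, at 3729 against 5095 CPM in the control library and 3626 against 4065 CPM in the other. The 80 measured ribosomal protein genes, a list added after their values were seen, had medians of −0.17 and 0.07. The 5 measured nuclear noncoding RNAs, added likewise, had medians of −0.19 and −0.39.

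The sensors and transcription factors of the unfolded protein response showed no common direction. Of 13 measured, 2 were higher and 1 lower in control members, and 3 were higher and 4 lower in members labelled knockout, with medians of 0.19 and −0.00. The PERK gene Eif2ak3 stood at 37.8 against 33.2 CPM and 35.0 against 28.7 CPM. Xbp1 stood at 197 against 164 CPM in the control library and at 194 CPM in both classes of the other.

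ER chaperones and ATF6 targets are the folding machinery of the ER. Of 21 measured, 14 lay above 0 and 7 below in the control library, and 11 above and 10 below in the other. Past 1.5-fold, 5 were higher and 1 lower in control members (median 0.29), and 2 were higher and 3 lower in members labelled knockout (median 0.11). Over all settings the list median ranged from 0.14 to 0.34 in the control library and from −0.0027 to 0.24 in the other. Hspa5 encodes the chaperone BiP (plus strand of chromosome 2, 34771970 to 34777547) and stood at 3348 CPM in control members and 1706 CPM in the bottom 50%. With the knockout label it stood at 2268 and 1205 CPM. Its log2 ratios, 0.97 (0.94 to 1.00) and 0.91 (0.87 to 0.96), were close, unlike those of Atf3 or Trib3. Sdf2l1, a BiP cofactor, gave 1.14 (1.01 to 1.27) and 0.54 (0.35 to 0.72), and Manf, a secreted ER protein, gave 1.11 and 0.52. Fkbp2, an ER prolyl isomerase, was lower at −0.77 and −0.89.

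Of 28 measured genes of ER translocation, glycosylation and degradation, 0 were higher and 1 was lower in control members, and 3 were higher and 2 lower in members labelled knockout. The list medians were 0.14 and −0.02. Herpud1, a component of ER-associated degradation, gave 0.51 and 0.79, and Rpn2, a subunit of the glycosylating enzyme, gave −0.75 and −1.15. The ER stress response element (CCAAT, then 9 bases of any kind, then CCACG), searched on both strands, was in the windows of 7 of 17 ER chaperone genes (41.2%) and in 0.137% of the 27025 genes with a window. Hspa5 is shown for its match 65 bases before its RefSeq start (chr2:34772004-34772063, plus strand), marked in capitals.
Hspa5: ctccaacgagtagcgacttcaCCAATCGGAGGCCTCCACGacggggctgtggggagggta

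**Figure D4:**
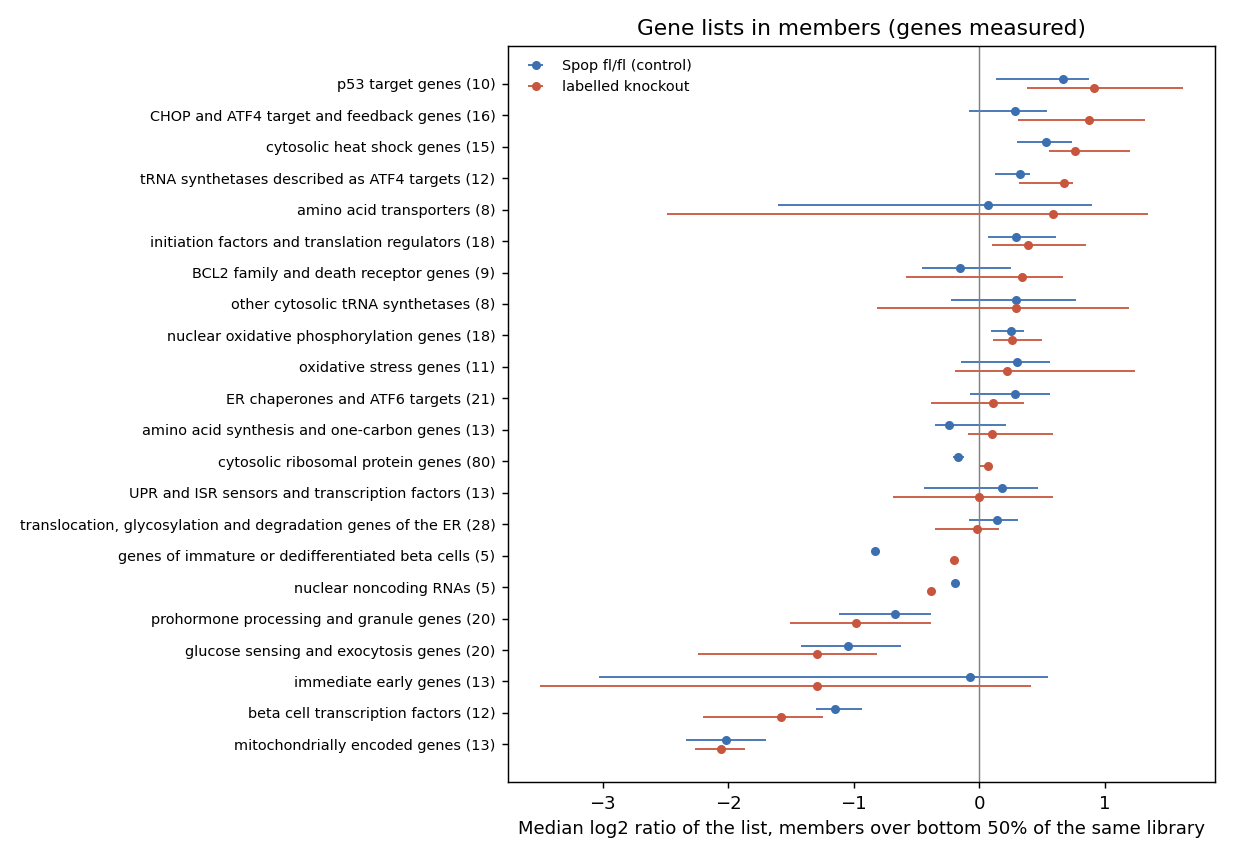
Median log2 ratio of members over the bottom 50% of the same library (x axis) for each gene list, with the number of measured genes in brackets. Bars are 95% order-statistic intervals over the genes of lists of 6 or more, which show the spread of the list and not replicate error. The lists of beta cell transcription factors, glucose sensing and granule genes lie below 0 in both libraries, and those of p53 targets and heat shock genes above 0.

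Genes of cell death and growth arrest were read for what CHOP is known for. Of 9 measured genes of the BCL2 family and death receptors, 0 were higher and 1 was lower in control members (median −0.15), and 2 were higher and 1 lower in members labelled knockout (median 0.34). Bax, a pore-forming killer protein, stood at 475.5 against 399.6 CPM and 419 against 264 CPM. Bbc3, which encodes the CHOP and p53 target PUMA, stood at 21.4 against 23.1 CPM in the control library and 21.5 against 14.9 CPM in the other. The targets of p53 stood higher, with 6 of 10 past 1.5-fold in the control library (median 0.67) and 7 of 10 in the other (median 0.91), and 0 lower in either. Cdkn1a, the cell cycle inhibitor p21, stood at 645 against 374 CPM and 487.5 against 151 CPM. Gadd45a, a DNA damage response gene, gave 0.94 and 1.58, and Phlda3, an inhibitor of AKT, gave 0.87 and 1.63. Against the sixth to eighth decile the p53 list medians were 0.11 and 0.43, and with comparison cells weighted by mitochondrial share 0.38 and 0.83.

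Heat shock chaperones of the cytosol were higher as well. Of 15 measured, 6 were higher and 1 lower in control members (median 0.53), and 10 were higher and 0 lower in members labelled knockout (median 0.76). Hsp90aa1 stood at 2998 against 1799 CPM in the control library and 2455 against 1181 CPM in the other. Dnajb1, a partner of HSP70, stood at 193 against 91.8 CPM and 109 against 40.3 CPM. Hspa1a gave log2 ratios of 1.56 and 2.80, but it and Hspa1b are near-identical copies whose counts are uncertain. Cells in the top 10% for Hspa1a, Hspa1b and Dnajb1 made up 32.3% of control members and 10.2% of those labelled knockout, against 19.7% and 3.97% of all gated cells. Without the cells high in heat shock, the medians of the CHOP and ATF4 target list were 0.42 and 0.92. The heat shock medians were 0.17 and 0.25 against the sixth to eighth decile, and 0.27 and 0.52 with weights by mitochondrial share.

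Of 11 measured oxidative stress genes, 1 was higher and 0 lower in control members and 3 were higher and 1 lower in members labelled knockout, with medians of 0.30 and 0.22. Srxn1, which repairs oxidised peroxiredoxins, was the one higher in both, at 0.77 and 1.24. Of 18 nuclear genes of oxidative phosphorylation, 1 and 3 were higher and 0 lower, with medians of 0.26 in both libraries, opposite in sign to the mitochondrially encoded genes. Cox4i1 stood at 1062 against 829 CPM and 1102 against 729.5 CPM.

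The genes that lead the ranking on the cautious end of their intervals reached beyond these lists. Tnfrsf12a, the receptor of the cytokine TWEAK, led the higher genes, at 265.5 against 102.6 CPM in the control library (log2 ratio 1.37) and 186 against 30.3 CPM in the other (2.62). After Atf3 came Prorsd1, Ifrd1, Znrd2, Dnajb1, Eef1e1 and Grpel1. Ifrd1, a transcriptional coregulator, gave 1.07 and 1.59. Grpel1 and Timm23, which serve protein import into mitochondria, gave 0.98 and 1.27, and 1.00 and 1.28. Snhg1, a host gene of small nucleolar RNAs, stood at 617 against 325 CPM and 647 against 169.5 CPM. Dnajc9, Snrpa1, Magoh and Tbcc were the others besides Hspa5, with log2 ratios between 1.00 and 1.63.

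Genes of mature beta cells stood lower in the members. Of 12 measured beta cell transcription factors 10 were at least 1.5-fold lower in each library, the same 10 genes, with medians of −1.15 and −1.58. Mafa, which drives insulin transcription in mature beta cells (chromosome 15, 75745490 to 75748228, minus strand), stood at 40.3 CPM in control members and 380.3 CPM in their bottom 50% (log2 ratio −3.24, −3.47 to −3.01). For the knockout label it stood at 43.9 and 713 CPM (−4.02, −4.33 to −3.73). Pdx1 gave −1.21 and −2.20, and Nkx2-2 gave −1.56 and −1.89. Insm1 and Glis3 were within 1.5-fold in both libraries. The lower genes of the ranking by interval also held Castor2 (−2.64 and −2.83), Hepacam2 (−2.57 and −3.24) and Ddc (−2.52 and −3.03). The medians of the transcription factors were −0.31 and −0.46 against the sixth to eighth decile, and −0.49 and −1.06 with comparison cells weighted by mitochondrial share.

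Glucose sensing and exocytosis genes followed the same direction. Of 20 measured, 15 were lower in control members and 16 in members labelled knockout, 14 of them in both, and 0 were higher, with medians of −1.04 and −1.29. G6pc2, a glucose-6-phosphatase of islets (69211073 to 69227841 on the plus strand of chromosome 2), was measured at 7.56 CPM in control members from 30 UMIs and at 142.5 CPM in the bottom 50%. With the knockout label it stood at 18.2 CPM from 39 UMIs and at 517 CPM. Slc2a2, the glucose transporter GLUT2, gave log2 ratios of −3.28 and −3.60, and Ffar1, a fatty acid receptor, gave −3.34 and −3.94. Glp1r, the GLP-1 receptor, gave −1.72 and −2.46. Syt4, a synaptotagmin, was not lower, at 611 against 499 CPM and 409 against 298 CPM. The list medians were −0.37 and −0.31 against the sixth to eighth decile, and −0.61 and −0.77 with weights by mitochondrial share.

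Prohormone processing and granule genes were lower in 13 of 20 measured cases in both libraries, with 0 higher in the control and 1 higher in the library labelled knockout (medians −0.67 and −0.98). Iapp, the hormone co-secreted with insulin, stood at 7405 against 22429 CPM in the control library and 9850 against 42354 CPM in the other. Ucn3, a marker of mature beta cells, gave −2.32 and −2.74. Cpe, which trims prohormones, differed little, at 2277 against 2157 CPM and 1814 against 1611 CPM. By deciles, Mafa was high where the score was low. In the lowest decile it stood at 1530 and 1063 CPM, and in the highest at 40.3 and 42.9 CPM. It was already at 64.9 and 82.3 CPM in the sixth decile, and members over the sixth to eighth decile gave log2 ratios of −0.64 (−0.90 to −0.39) and −0.69 (−1.01 to −0.38). Most of the Mafa difference thus lay below the middle of the score range. The granule list medians against the same cells were −0.19 and −0.22.

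Insulin RNA separated its genes. Ins1 was lower in members, with log2 ratios of −0.89 and −2.07 on the scale of non-insulin UMIs. Ins2 stood at 164573 against 161305 CPM in the control library (0.03) and 153059 against 193407 CPM in the other (−0.34). Insulin made up 10.3% of a control member's UMIs and 10.0% of a bottom cell's, by median, and 10.8% and 18.7% in the library labelled knockout. Among insulin UMIs, Ins1 made up 5.49% and 6.39% in the control library and 9.29% and 24.9% in the other. By deciles, Ins1 was highest in the lowest control decile (85484 CPM), lowest in the sixth (8644 CPM) and at 15672 CPM in the last.

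**Figure D5:**
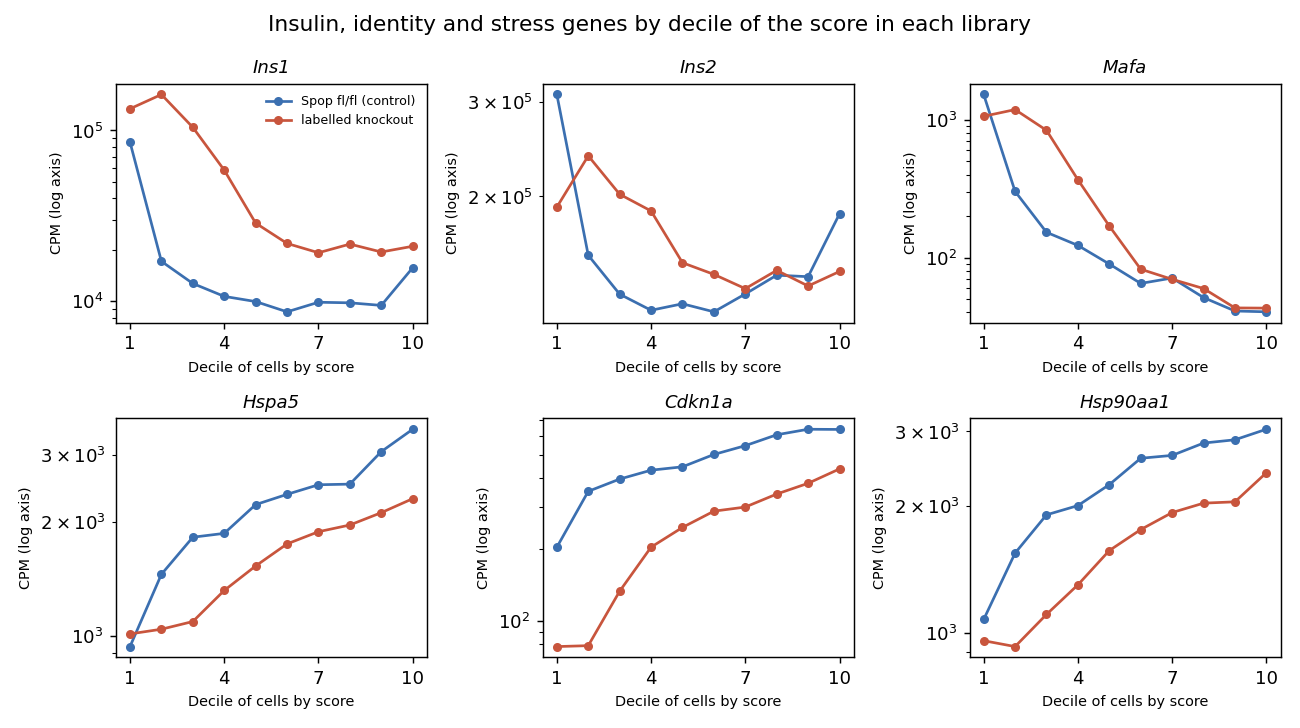
CPM (log axis) of Ins1, Ins2, Mafa, Hspa5, Cdkn1a and Hsp90aa1 in deciles of gated cells ordered by score within each library (1 is lowest). Mafa is at 1530 and 1063 CPM in the first deciles and at 40.3 and 42.9 CPM in the last, while Hspa5 is at 936 and 1011 CPM in the first and 3516 and 2304 CPM in the last.

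Immediate early genes, which respond within minutes to cell activation and handling, did not move as one group. Of 13 measured, 5 were lower and 2 higher in control members and 8 lower and 2 higher in members labelled knockout. Fos stood at 6.30 against 51.6 CPM and 16.8 against 244 CPM, and Egr1 at 5.04 against 48.7 CPM and 18.7 against 210.6 CPM. Jun was at 325 against 195 CPM in the control library and 266 against 232 CPM in the other. Of 5 measured genes of immature or dedifferentiated beta cells 0 were higher in either library, and 3 and 2 were lower. Pyy, a gut and islet hormone gene, gave −2.90 and −2.66, but the beta gate itself limits it.

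Hormone cell markers summed lower in members than in the bottom 50%. Summed alpha cell markers stood at 1670 against 3652 CPM in the control library and 1026 against 2615 CPM in the other, mostly from Gcg, and 4 of the 5 measured ones were lower in both. Delta cell markers summed to 70.6 against 235 CPM and 183 against 233 CPM, and pancreatic polypeptide cell markers to 270.0 against 907 CPM and 572 against 1820 CPM. The gate limits Gcg, Sst, Ppy and Pyy by rule. Summed acinar markers were at 5.55 and 30.8 CPM in members, endothelial markers at 3.53 CPM in control members and mesenchymal markers at 0.504 and 4.20 CPM, with none of these lists measured at 10 CPM in any gene. Immune markers summed to 35.6 and 44.4 CPM in members and to 44.3 and 229.5 CPM in the bottom 50%, where C1qa, a macrophage gene, stood at 123 CPM in the library labelled knockout. Ptprc, Cd3e, Sox9, Dcn, Plvap and Flt1 were at 0 in the members of both libraries. Their part in the results was not tested.

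Ductal markers summed to 751 CPM in control members and 715 CPM in their bottom 50%, and to 1190.0 and 877 CPM in the library labelled knockout. Of the 4 measured, 2 lay above 0 and 2 below 0 in each library. Krt8 and Krt18, keratins of simple epithelia, gave log2 ratios of 0.40 and 0.89, and 0.51 and 0.91. Krt7, another keratin, gave −0.56 and −0.19, and Spp1, a secreted phosphoprotein, gave −1.15 and −0.24. Sox9 was at 0 in members and Krt19 at 0.756 and 0.467 CPM. Glial markers summed to 10.8 and 9.81 CPM in members, with Sox10 and Gfap at 0. Cycling markers summed to 65.6 CPM in control members and 55.7 CPM in their bottom 50%, and to 78.9 and 50.9 CPM in the other library. Top2a was at 0 in members, and Mki67 at 2.02 and 0.934 CPM. The part of these markers in the results was not tested.

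Members differed among themselves. In the 16 measured CHOP and ATF4 targets summed, 70.0% of control members and 92.2% of those labelled knockout lay above the median cell of their bottom 50%. Over all gated cells the summed targets and the score had a Spearman correlation of 0.36 (2636 control cells) and 0.60 (4257 cells). Within the members it was −0.09 (434 cells) and 0.07 (255 cells). Members cover only the upper end of the score, with 10th to 90th percentiles of 3656 to 5385 and 3615 to 5227. The correlations within members therefore cannot be set against those over all gated cells. Cells of a library share its preparation, and both measures share the cell's UMI total. Summed heat shock genes lay above the bottom median in 85.9% and 95.3% of members, and granule genes in 11.8% and 0.392%.

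Members of the libraries were then set against each other. Of 8424 genes, 797 (9.46%) were at least 1.5-fold higher in members labelled knockout than in control members and 401 (4.76%) lower. Between the bottom 50% of the libraries these shares were 7.59% and 8.32%. The median of CHOP and ATF4 targets was −0.14 between members and −0.78 between the bottom 50% of the libraries. All 10 measured p53 targets were lower in members labelled knockout, 4 of them past 1.5-fold, with a median of −0.47. Heat shock genes gave a median of −0.35, with 5 of 15 past 1.5-fold lower and 1 higher, and Hspa5 had a log2 ratio of −0.56 (−0.61 to −0.51). In the other direction Ins1 was higher by 0.82, and Fam151a and Ddc, which makes dopamine and serotonin, by 2.40 and 1.85. The score of members was close in both libraries, and these genes were not. Between the bottom 50% of the libraries the p53 and heat shock medians were −0.89 and −0.62. Both differences were thus larger there and not particular to members.

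The ratio of members over the bottom 50% differed most between libraries in genes on both sides. More positive in the library labelled knockout were Atf3 (difference 1.55, 1.31 to 1.78), Sst (2.07), Mgp (4.94, 3.61 to 6.27, from 5 UMIs in control members) and Eppk1 (1.86). Mgp did not follow the score by deciles in that library, at 195.8 CPM in the fourth and 2.17 CPM in the fifth. The beta gate limits Sst by rule. More negative were Tmsb15b2 (−1.53, uncertain because its annotation overlaps other Tmsb15 genes), Tmsb4x, an actin-binding thymosin (−1.34), and Maob, a monoamine oxidase (−1.57). Maob stood at 39.6 against 71.0 CPM in the control library and 28.9 against 154 CPM in the other. These differences compare these libraries and were not tested.

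Compared with the sixth to eighth decile of their own library, 791 and 1277 cells, members differed in far fewer genes. Here 15 genes (0.178%) were higher and 312 (3.70%) lower in control members, and 108 (1.28%) higher and 344 (4.08%) lower in members labelled knockout. The contrast was wider in the library labelled knockout. The seventh decile had a median score of 2882 in the control library and 1983 in the other, against 4219 and 4080 in members. Both libraries shared 3 higher genes (0.0356%), Hspa1a, AY036118 and Sertad1, named after their values were seen, and 97 lower ones (1.15%). Lcn2, an iron-carrier binding protein, led the lower genes, with log2 ratios of −1.51 and −1.83. Ddit3 itself was higher by 0.66 and 1.34, Atf4 by 0.40 and 0.46 and Trib3 by 0.07 (−0.06 to 0.19) and 0.36 (0.20 to 0.52). The rule genes chose the cells, so these values are descriptions.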

How the data were processed

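Islet cells of 2 libraries were measured by 3′ single-cell RNA sequencing. The deposited values are raw UMI counts, with Cell Ranger 6.0.0 named per the file headers. The submitters' processing notes list the build mm10 and the tools Seurat 4.1.0 and R 4.1.1, with no role given. All columns were used.

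The beta gate kept barcodes with at least 500 genes, at most 15% mitochondrial UMIs, at least 5000 UMIs, Ins1 plus Ins2 above 1% of UMIs and above 4 times Gcg, Sst, Ppy and Pyy summed. Doublets were not called. An alternative left out the 5% of cells with most UMIs. Counts were summed per class and library, scaled to CPM without Ins1 and Ins2, and kept for genes at 10 CPM. Of 2 rows named Ddit3, the one with 0 UMIs was not used. Ratios have exact conditional and shares Clopper-Pearson intervals at 95%, and called means 1.5-fold, since 1 library per group allows no test.

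The members and lists were chosen with earlier results of these data known. Lists of mitochondrially encoded genes, ribosomal proteins and nuclear noncoding RNAs were added after their values were seen. Named genes were the rule genes, Spop and insulin, the first 15 higher and 15 lower genes at 25 CPM in both libraries ranked by the end of the interval closest to 0, up to 4 genes per list by mean log2 ratio with intervals excluding 0 on one side in both, and 4 genes on each side by difference between libraries, of which 1 is not reported here. Other listed genes are given as examples chosen with their values seen. Of the 114 genes named by this rule, 114 had positions in GENCODE mouse release M21. Alternatives changed the ranking, gate, comparison cells, weights, scaling and filter. Scripts were checked on simulated data. The work used matplotlib 3.10.9, pandas 2.3.3, scipy 1.17.1 and numpy 2.4.6 in Python 3.11.15.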

Additional observations from a re-analysis of the deposited data

Results flagged for a closer look

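Some values went in opposite directions in the libraries, and the difference was not tested in any of them. Ins2 had a log2 ratio of members over the bottom 50% of 0.029 for the control and −0.34 for the library labelled knockout. Eppk1, a cytoskeletal linker of epithelial cells, had −0.60 (−0.97 to −0.24) and 1.26 (0.91 to 1.60), at 18.4 against 27.9 CPM and 40.2 against 16.7 CPM. The median of the cytosolic ribosomal protein genes was −0.17 for the control, with 69 of 80 below 0, and 0.067 for the library labelled knockout, with 30 of 80 below 0.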

How the results depend on the processing

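No paired analysis was possible because each genotype has 1 library. The number of genes 1.5-fold higher and lower in members of both libraries, 570 and 819 of 8424, depended on the choice of cells and filter. The total was 8424 genes in each setting below unless another is given. It was 101 and 542 against all other gated cells, 3 and 97 against the sixth to eighth decile (chosen after seeing the data) and 80 and 352 with comparison cells weighted by mitochondrial share. It was 30 and 210 with Ddit3 left out of the score and 1102 and 1771 of 13679 genes with no CPM filter. At 25 CPM 458 of 5665 genes were lower, and with cells thinned to 5000 UMIs before ranking 308 were higher. Thinned ranking kept 72.6% and 69.4% of members. Fewer genes are measured at 25 CPM and more with no filter, so these counts have another total, and otherwise the cause was not tested.

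Members made up 10.0% and 10.0% of gated cells with the top 10% taken within each library, 8.6% and 2.7% at the top 5%, 32.1% and 12.5% at the top 20%, and 5.21% in the library labelled knockout with Ddit3 left out. The CHOP and ATF4 target median in that library was 0.13 against the sixth to eighth decile. Over all settings it ranged from −0.03 to 0.43 in the control library and from 0.13 to 1.03 in the other. Of all list medians 54 moved beyond the spread of their genes, 5 whose spread excluded 0 changed sign, and 999 were counted as not moved. A change of sign was not counted where the spread of the genes included 0, as for the control CHOP and ATF4 target median of −0.03. The median of amino acid synthesis genes likewise ranged from −0.33 to 0.35 in the control library and from −0.31 to 0.83 in the other. The 999 include medians with no interval, which had no spread to be compared with. These are the medians of all measured genes, of immature or dedifferentiated beta cell genes and of nuclear noncoding RNAs. With Ddit3 left out of the score, control medians were −0.45 for beta cell transcription factors, −0.39 for glucose sensing, 0.20 for p53 targets and 0.17 for heat shock genes.

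The ribosomal protein median of the library labelled knockout turned to −0.042 with TMM scaling, −0.0012 against all other cells, −0.027 and −0.17 with weights by insulin and mitochondrial share, and −0.11 against the sixth to eighth decile. Control Ins2 turned to −0.016 when chosen and read on separate parts of the UMIs, −0.25 and −0.49 with weights by UMIs and mitochondrial share, −0.39 with equal cells, −1.27 with the score over all UMIs, −0.40 without Ddit3 in the score, −0.082 at the top 20%, −0.065 without heat shock cells and −0.062 without the cells with most UMIs. In the library labelled knockout Ins2 turned to 0.24 with weights by insulin share. Spp1 in that library turned to 0.62 with thinning, 0.17 on separate parts, 0.39 without Atf4 and 0.26 without Trib3 in the score, 0.59 with libraries ranked apart, 0.42 at the top 20%, 0.025 at the top 5% and 0.083 without heat shock cells. Ppy there turned to 0.35 on separate parts, 0.29 with weights by UMIs, 0.028 without heat shock cells and 0.20 without the cells with most UMIs, and Sst to 0.68 with weights by UMIs and 0.24 at the top 5%.

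In the control library Gdf15 turned to −0.054 with thinning, Got1 to −0.037 on separate parts and −0.11 at the top 5%, and Trib3 to −0.13 with Trib3 left out of the score. With Ddit3 left out, Mcl1 turned to −0.11, Txnrd1 to −0.051 and Spp1 to 0.70 in the control library and Krt7 to 0.0046 in the other. Against the sixth to eighth decile, control values turned to −0.039 for Bax, −0.043 for Farsb, −0.072 for Gdf15, −0.037 for Got1, −0.067 for Hmox1, −0.072 for Psph, 0.46 for Ins1, 0.019 for Mlxipl and 0.094 for Tmsb4x. Values of the library labelled knockout turned to −0.32 for Eppk1, −0.0074 for Gdf15, 0.13 for Ins1, 0.12 for Ins2 and 0.049 for Ppy. Of the other single-gene values 3718 stayed within their counting interval and 1433 did not. Depth limits genes with few UMIs in members, such as Mgp.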
